A study of Homo sapiens with 10 samples.

Results

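The CTCF peaks described here were found in CGGBP1 knockdown (KD) cells and neither in control (CT) nor in CGGBP1-overexpressing (OE) cells. They were the intervals that stood in both deposited lists of KD peaks, the list without a CT overlap and the list without an OE overlap. There were 15269 such KD-only peaks among 47632 KD peaks and among 137826 CTCF peaks in the CT, KD and OE lists together. The members were thus chosen by the CTCF peak calls themselves, and the 32.1% of KD peaks that they make up is a description and not a finding.

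All cells were HEK293T, a human embryonic kidney line that carries the SV40 large T antigen. CT cells carried a lentivirus with a non-targeting shRNA and kept endogenous CGGBP1, KD cells carried shRNA lentivirus that silences CGGBP1, and OE cells carried a lentivirus with a CGGBP1 cDNA. CT and KD cells were selected with puromycin, and such a selection is not given for OE. CTCF ChIP-seq was done once per condition, histone mark ChIP-seq (H3K4me3, H3K9me3 and H3K27me3) once in CT and once in KD, and 1 input library had no stated condition. With 1 library per group no difference between CT, KD and OE could be tested. A peak absent from the CT and OE lists may still have had reads there, since the lists hold positions without height, p or depth. For KD peaks without a CT overlap, a wider set than the one here, the study reports that CT reads occurred as background, whether or not a motif was there. Per the labels, peaks were called at a p threshold of 0.0025 in the CT and KD libraries of CTCF, at 0.005 in that of OE and at 0.001 in all others. All intervals given below are 95% intervals with peaks as units, exact Clopper-Pearson for a share and normal for a difference, and cover neither library preparation nor cell culture.

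CTCF is a zinc finger protein that binds a conserved GC-rich motif and holds chromatin loops together with cohesin, which stops at CTCF sites of a given orientation. It acts as an insulator between enhancers and promoters, and methylation of a CpG inside its motif can weaken its binding. CGGBP1 is a small DNA-binding protein with a preference for CGG repeats and interspersed repeats, and has been linked to cytosine methylation and to the silencing of repeats. The study asked how the level of CGGBP1 sets where CTCF binds.

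The CTCF motif was read with a 14-column matrix learned from repeat-masked CT peaks that also overlapped repeat-masked KD and OE peaks. Of its 12859 training peaks, 130 overlapped a KD-only peak. The training peaks were thus called in CT, KD and OE alike, as were the KD peaks compared with KD-only peaks below. A repeat-masked CT peak overlapped 60.1% of the KD peaks that overlapped both a CT and an OE peak, and 3.41% of KD-only peaks. The motif shares and scores of those KD peaks were therefore not independent of the matrix. A site counted as a motif at 8.31 bits or more on either strand, a score that random sequence of the genome's base composition reaches at 0.0001 of its positions, and the highest possible score was 23.72 bits. The KD-only peaks with the best sites are shown first, because they are the best matches of the motif without a peak call in the unmasked CT or OE lists. These 6 were taken as the highest scores among KD-only peaks without a repeated base or an input peak, with ties taken in chromosome order. Each line gives the 14-base site in capitals with 8 bases on both sides, 5′ to 3′ on the strand of the site, in the human build hg38:

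KD-only site in an intron of FRMD4A, chr10:14032614-14032627, plus strand: agtgaaggCCACCAGGGGGCGCcagcaagg
KD-only site 578 bp (peak centre) from the start of ACBD4, chr17:45132019-45132032, minus strand: tttgcttcCCACCAGGGGGCGCtcgcgggg
KD-only site in an intron of FAM228B, chr2:24164548-24164561, minus strand: gtgtggctCCACCAGGGGGCACcctcatcg
KD-only site 62 bp (peak centre) from the start of RUFY4, chr2:218034910-218034923, minus strand: ccttctcgCCACCAGGGGGCACagggaggc
KD-only site in an intergenic stretch 10293 bp (peak centre) from the start of MICAL2, chr11:12083585-12083598, plus strand: tactaggaCCACCAGGGGGCACccactgtg
KD-only site in an intron of the non-coding gene LINC01234, chr12:113732197-113732210, minus strand: tgagggctCCACCAGGGGGCACtctgaatg

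The first pair scored 23.72 bits and the other 4 scored 23.25 bits. In the repeat-masked lists, the peak at RUFY4 was called in CT and OE and that in LINC01234 in CT. The highest score of 23.72 bits was found in 15 of the 15269 KD-only peaks, and in 77 of 18486 KD peaks shared with CT and OE. KD peaks shared with OE alone had it in 37 of 10814, and those shared with CT alone in 10 of 3063. It was also found in 5 of 19918 CT-only peaks and in 1 of 16378 OE-only peaks. The sites of FRMD4A and ACBD4 held a CpG in columns 12 and 13, counted from 1 at the 5′ end of the site, and the other 4 held none. The peak at FRMD4A, a scaffold protein of cell polarity, spanned 301 bp and had its nearest CT peak 46.7 kb and its nearest OE peak 27.5 kb away. It overlapped a KD peak of H3K4me3 and none of CT. At ACBD4, an acyl-CoA-binding protein, the peak spanned 274 bp inside the gene body of the neighbouring PLCD3, a phospholipase C. H3K4me3 peaks of both CT and KD covered it, and the nearest CT and OE peaks of CTCF stood 3.12 kb and 3.11 kb away. The central 200 bases of the FRMD4A peak and the whole ACBD4 peak follow on the plus strand, with the site in capitals:

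FRMD4A peak, chr10:14032474-14032673: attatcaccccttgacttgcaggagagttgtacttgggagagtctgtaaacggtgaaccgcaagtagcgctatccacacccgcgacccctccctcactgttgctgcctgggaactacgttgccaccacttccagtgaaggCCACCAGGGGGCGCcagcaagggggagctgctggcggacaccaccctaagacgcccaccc
ACBD4 peak, chr17:45131885-45132158: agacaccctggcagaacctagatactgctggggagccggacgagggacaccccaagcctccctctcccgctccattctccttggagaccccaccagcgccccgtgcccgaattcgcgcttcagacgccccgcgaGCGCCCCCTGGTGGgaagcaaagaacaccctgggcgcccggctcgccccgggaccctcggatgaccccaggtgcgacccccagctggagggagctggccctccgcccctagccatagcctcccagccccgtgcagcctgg

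Most KD-only peaks had no such site. The widest motif-free KD-only peaks without repeats or input overlap are shown as examples of this larger group, and were picked for their width alone. The central 200 bases of the 3 widest are given on the plus strand in lower case, since no stretch of them reached the motif threshold:

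Intron of PTGFR, chr1:78427547-78427746: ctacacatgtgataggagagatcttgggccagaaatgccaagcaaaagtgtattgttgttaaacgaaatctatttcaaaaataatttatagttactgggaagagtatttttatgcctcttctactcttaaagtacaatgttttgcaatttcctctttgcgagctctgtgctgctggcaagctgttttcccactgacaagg
Intergenic, chr1:168623008-168623207: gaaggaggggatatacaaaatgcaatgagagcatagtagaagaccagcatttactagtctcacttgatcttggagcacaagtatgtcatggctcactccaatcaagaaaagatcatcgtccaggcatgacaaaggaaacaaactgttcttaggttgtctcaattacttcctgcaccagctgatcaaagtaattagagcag
Intron of ROBO1, chr3:79459475-79459674: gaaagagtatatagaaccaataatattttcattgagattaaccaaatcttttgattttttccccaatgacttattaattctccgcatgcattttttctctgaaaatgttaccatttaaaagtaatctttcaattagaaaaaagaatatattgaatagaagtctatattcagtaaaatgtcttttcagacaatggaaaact

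These peaks spanned 685, 668 and 632 bp, and their GC content was 35.6%, 42.1% and 27.4%. PTGFR is the prostaglandin F receptor and ROBO1 an axon guidance receptor. The PTGFR peak was also called in the repeat-masked KD list. The intergenic peak overlapped a repeat-masked CT peak and no repeat-masked KD peak, and H3K4me3 peaks of CT and KD covered it. The ROBO1 peak overlapped no repeat-masked CTCF peak and no H3K4me3 or H3K9me3 peak of CT or KD.

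A CTCF motif was present in 6271 of the 15269 KD-only peaks, 41.1% (interval 40.3% to 41.9%), whereas 67.4% of all KD peaks held one. KD peaks that overlapped both a CT and an OE peak, called shared peaks below, held it in 81.5% of 18486, which was 40.5 percentage points more (39.5 to 41.4). The KD-only peaks were nevertheless richer in motifs than the exclusive peaks of the other conditions. CT-only peaks held a motif in 15.4% of 19918 and OE-only peaks in 17.7% of 16378, so that KD-only peaks exceeded them by 25.7 points (24.7 to 26.6) and 23.4 points (22.4 to 24.4). Of all end-to-end windows of 257 bp in hg38, the median width of a KD-only peak, 12.5% held a site. At a stricter threshold of 13.25 bits, reached at 1e-05 of random positions, the shares were 25.8% of KD-only peaks, 68.6% of shared peaks and 2.002% of windows.

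**Figure D1:**
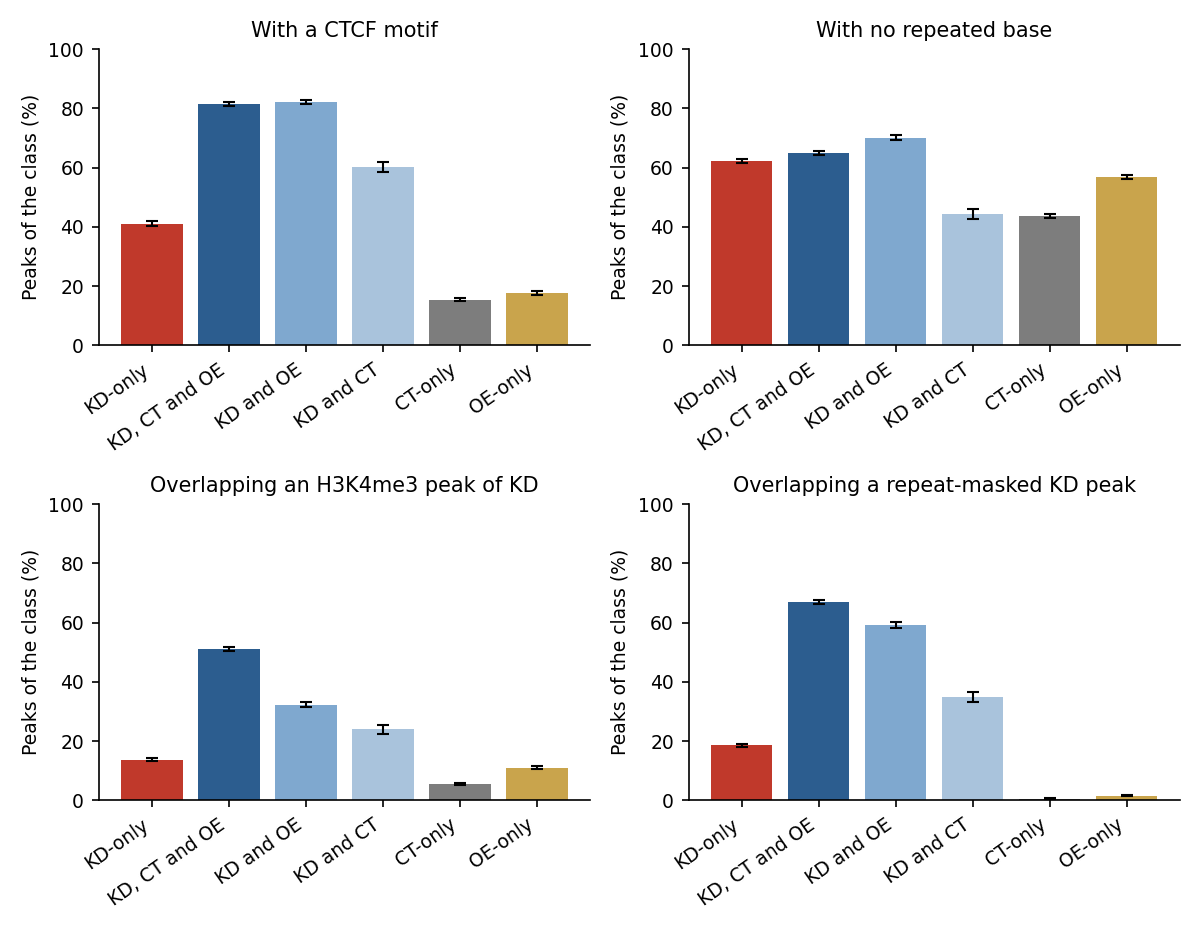
Bars give the share of peaks in each class (%, vertical axis) with a CTCF motif, with no repeated base, overlapping an H3K4me3 peak of KD and overlapping a repeat-masked KD peak; error bars are exact 95% intervals over peaks. KD-only peaks (red, 15269) lie between shared KD peaks (dark blue, 18486) and CT-only (grey, 19918) or OE-only (ochre, 16378) peaks for motif, H3K4me3 and repeat-masked overlap, and close to shared KD peaks for the share without a repeated base.

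The sites of KD-only peaks were also weaker. Among peaks with a motif the median best score was 14.62 bits in KD-only and 17.19 bits in shared peaks, against 11.28 bits in CT-only and 12.15 bits in OE-only peaks. A second site was present in 8.86% of KD-only and 23.9% of shared peaks. Read the other way, the share of KD peaks that were KD-only fell from 57.9% of 15547 peaks without a motif to 43.2% of those under 10 bits, 20.6% at 14 to 16 bits and 7.15% of the 1510 peaks with 22 bits or more. Every step in this order went down.

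The best site lay within 50 bp of the peak centre in 4177 of the 6271 KD-only peaks with a motif, 66.6%. This was 13.5 points less than in shared peaks (80.1%, interval of the difference 12.2 to 14.9) and more than in CT-only (39.0%) and OE-only (52.4%) peaks, by 27.6 points (25.5 to 29.7) and 14.2 points (12.01 to 16.3). The median distance was 32.5 bp in KD-only, 23.5 bp in shared, 65.5 bp in CT-only and 47.5 bp in OE-only peaks. Sites on the plus strand made up 50.1% of the best sites of KD-only peaks, and 50.2% in shared peaks.

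**Figure D2:**
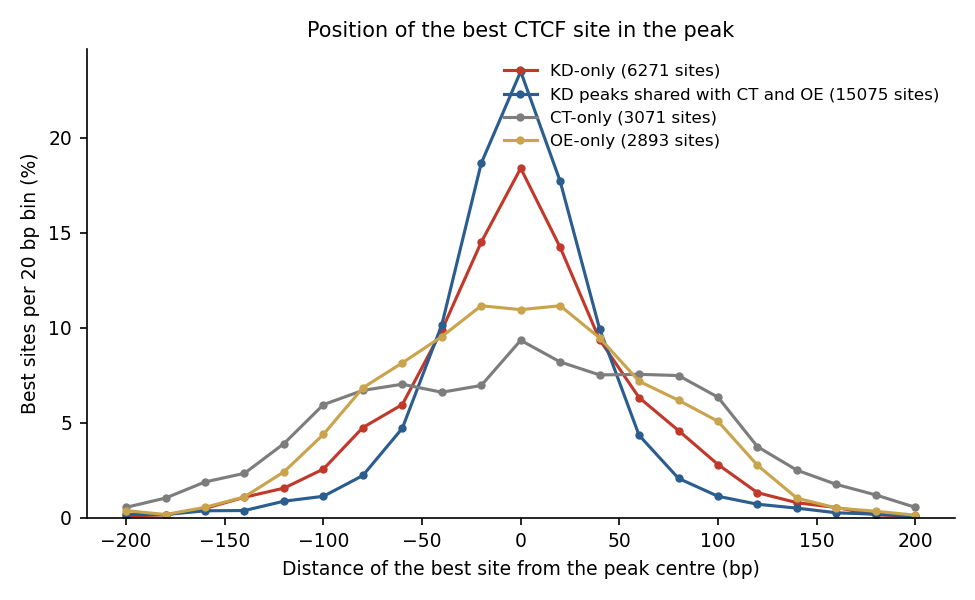
Lines give the share of best CTCF sites (%, vertical axis) in 20 bp bins of distance between site centre and peak centre (bp, horizontal axis), over the peaks of each class that hold a site. The KD-only curve (red) is peaked at the centre, below shared KD peaks (dark blue) and above the flatter CT-only (grey) and OE-only (ochre) curves.

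The sites of KD-only peaks held a CpG less often than those of shared peaks, and in columns 12 and 13 more often than those of CT-only and OE-only peaks. In columns 12 and 13 a CpG stood in 1123 of 6271 best sites of KD-only peaks (17.9%, 17.0% to 18.9%) and in 27.97% of 15075 in shared peaks, 10.06 points more (8.87 to 11.2). In CT-only peaks it stood in 11.7% (10.6% to 12.9%) and in OE-only peaks in 12.7% (11.5% to 13.95%). In columns 2 and 3 the shares were 6.22% in KD-only and 7.69% in shared peaks, which differed by 1.47 points (0.736 to 2.20), and 12.2% in CT-only and 5.91% in OE-only peaks. Restricted to sites of 16 bits or more, columns 12 and 13 held a CpG in 22.9% of KD-only and 31.8% of shared peaks, a difference of 8.92 points (6.96 to 10.9). Under the same restriction columns 2 and 3 held one in 5.24% and 5.59%, a difference of 0.342 points whose interval of -0.680 to 1.36 included 0. GC content over the whole peak was 41.4% in KD-only and 45.4% in shared peaks, 46.3% in KD-only peaks with a motif and 37.9% in those without. Cytosine methylation was not measured in these libraries.

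KD-only peaks were narrow, with a median of 257 bp and quartiles of 224 and 304 bp, against 323 bp in shared, 292 bp in CT-only and 248 bp in OE-only peaks. KD peaks shared with CT alone were about as narrow, with a median of 260 bp, and those shared with OE alone had 293 bp. KD-only peaks were 58.1% of the KD peaks under 220 bp and 10.96% of those of 500 bp or more. Among KD-only peaks under 220 bp 39.8% held a motif, and among those of 400 bp and more 45.4%. In shared peaks the share went from 48.7% under 220 bp to 90.7% at 350 to 400 bp and was 83.1% at 400 bp and more, and KD-only peaks lay below shared peaks in each of the width classes.

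**Figure D3:**
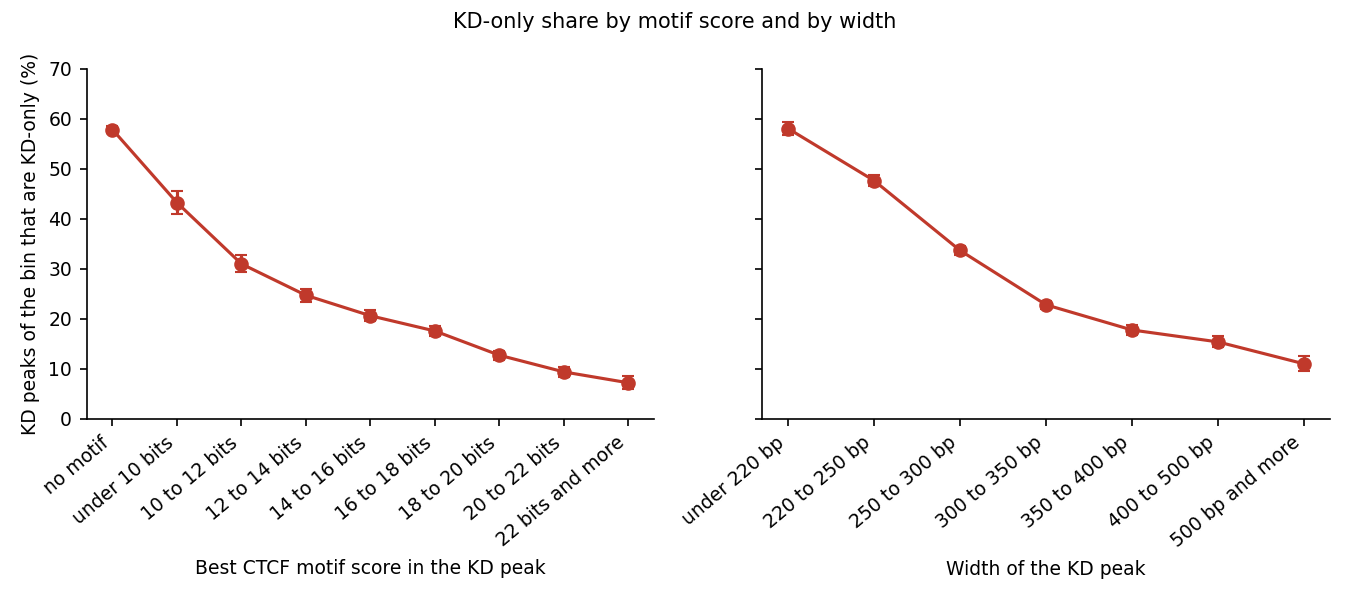
Points give the share of KD peaks that are KD-only (%, vertical axis) in bins of the best CTCF motif score in the peak (bits, left) and of peak width (bp, right), with exact 95% intervals over peaks. The share falls along both axes, from 57.9% without a motif to 7.15% at 22 bits and more, and from 58.1% under 220 bp to 10.96% at 500 bp and more.

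Repeats were read from the genome itself, by counting a base as repeated if it lay in a 24-mer found at least 10 times in hg38 on either strand. This held for 23.8% of all known bases. Under KD-only peaks 22.2% of bases were repeated, and under shared peaks 21.5%, a difference of 0.717 points with an interval of -0.132 to 1.57. Without peaks that overlap an input peak the shares were 21.9% and 12.9%, and the difference was 9.02 points (8.27 to 9.77). CT-only peaks had 38.1% and OE-only peaks 30.6%, which was 15.9 (15.1 to 16.8) and 8.40 (7.50 to 9.30) points above the KD-only peaks. KD peaks shared with CT alone had 41.5%, and those shared with OE alone 15.6%. No repeated base at all was present in 9518 KD-only peaks (62.3%, beside 64% of all KD peaks). In 3140 of them (20.6%, beside 20.1%) 50% or more of the bases were repeated.

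The make-up of KD-only and shared peaks differed between those with and those without a motif. Shared peaks without a motif were almost entirely repetitive, with 81.9% of their bases repeated, and 42.9% of them overlapped an input peak, while KD-only peaks without a motif had 28.3%, below the 38.8% of motif-free CT-only peaks. KD peaks that had neither a motif nor a repeated base were KD-only in 5141 of 6373 cases, 80.7% (79.7% to 81.6%). Motif-free KD peaks of which 90% or more was repeated were KD-only in 28.8% of 6702 cases. With a motif, the KD-only share was 18.2% without a repeated base and 33.2% at 90% or more. Of all KD-only peaks, 33.7% thus had neither motif nor repeat, 28.7% had a motif and no repeat, and 15.8% had no motif and were repetitive over 50% or more of their length.

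**Figure D4:**
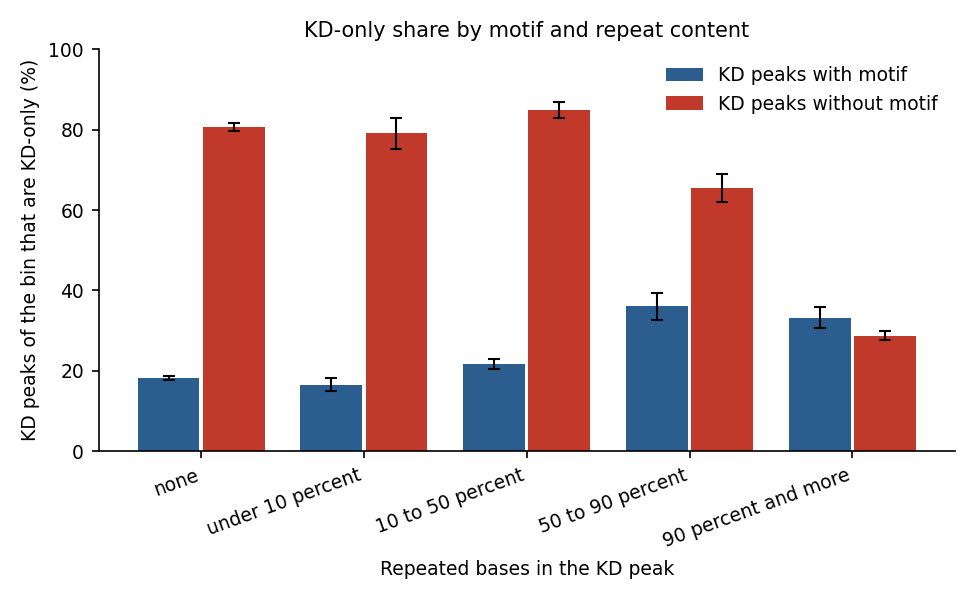
Bars give the share of KD peaks that are KD-only (%, vertical axis) by the share of their bases that is repeated (horizontal axis), for KD peaks with (blue) and without (red) a CTCF motif; error bars are exact 95% intervals over peaks. Motif-free peaks are KD-only in 80.7% of cases without a repeated base and in 28.8% at 90% or more, while peaks with a motif go from 18.2% to 33.2%.

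The 24-mers found in the largest number of motif-free KD-only peaks, with overlapping ones merged, are given as examples of their repeats. The top 3 were in 2.23%, 1.72% and 1.64% of the 8998 motif-free KD-only peaks. These shares are too small to show which repeats such peaks mostly held. For motif-free KD peaks without a CT overlap, a wider set, the study reports a larger share of interspersed repeats than of satellites. The 3 most frequent 24-mers are all parts of the alpha satellite monomer, the tandem repeat of human centromeres, and are printed in capitals throughout:

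24-mer in 201 motif-free KD-only peaks: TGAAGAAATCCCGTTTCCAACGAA
24-mer in 155 motif-free KD-only peaks: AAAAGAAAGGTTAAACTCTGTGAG
24-mer in 148 motif-free KD-only peaks: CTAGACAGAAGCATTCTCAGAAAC

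They occurred 25901, 19781 and 40702 times in hg38. The first was in 1.68% of all KD-only peaks, 2.76% of shared, 1.09% of CT-only and 1.95% of OE-only peaks. This 24-mer was therefore in a small part of the KD-only peaks, and in a larger part of the shared and OE-only peaks. The 1 Mb stretches with most KD-only peaks were repetitive, though the 24-mers were not counted in them. KD-only were 44 of the 95 KD peaks in chr12:35000001-36000000 and 38 of the 76 in chr18:18000001-19000000. In chr19:26000001-27000000 they were 38 of 164, beside 32.1% of all KD peaks. Every one of these KD-only peaks was repetitive over 50% or more of its length. None of the 44 on chromosome 12 held a motif, while 24 of the 38 on chromosome 18 did.

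Masking repeats before alignment gave a second, repeat-masked list for each condition from the same libraries, so the overlap with it is a description of the calls. A repeat-masked KD peak overlapped 2830 KD-only peaks, 18.5%, beside 47.6% of all KD peaks and 67.1% of shared peaks. With a motif the share was 36.0%, and without a motif 6.38%. A repeat-masked CT peak overlapped 520 KD-only peaks (3.41%, beside 30.8% of all KD peaks) and a repeat-masked OE peak 546 (3.58%, beside 38.4%). These KD-only peaks thus lay at places where the other condition did have a call once repeats were masked. The 2830 peaks called both ways held a motif in 79.7%, had a median best score of 15.35 bits and had their site within 50 bp of the centre in 77.3%, closer to the shared peaks than the remaining KD-only peaks were (14.11 bits and 60.6%).

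By the rule no KD-only peak overlapped a CT or OE peak. The median distance to the nearest of these was 13.1 kb. Such a peak lay within 500 bp of 551 KD-only peaks (3.61%), within 5 kb of 24.2% and within 10 kb of 41.96%. At the edge of the rule, a peak of 264 bp at chr21:25895897-25896160 with a site of 18.12 bits stood 1 bp from a CT peak and counted as KD-only. The peak at chr13:65507072-65507329 overlapped a CT peak by 2 bp and did not. Only 10 KD peaks outside the group overlapped a CT or OE peak by less than 10 bp, and the median overlap was 88.8% of the width.

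H3K4me3 marks active and poised promoters. An H3K4me3 peak of KD overlapped 2102 KD-only peaks, 13.8% (13.2% to 14.3%), beside 33.1% of all KD peaks. Shared peaks had 51.1%, or 37.3 points more (36.4 to 38.2). CT-only peaks had 5.64% and OE-only peaks 10.9%, less than KD-only peaks by 8.12 points (7.49 to 8.76) and 2.82 points (2.09 to 3.55). The H3K4me3 libraries were separate from the CTCF libraries, so these overlaps played no part in choosing the peaks. The marks were largely the same with CT as the source: 2085 KD-only peaks overlapped an H3K4me3 peak of CT (13.7%, beside 32.5%), and 1794 overlapped peaks of both. Another 308 overlapped H3K4me3 in KD alone (2.02%, beside 4.91% of all KD peaks) and 291 in CT alone (1.91%, beside 4.35%). KD-only peaks with a motif overlapped H3K4me3 of KD in 16.9% and those without in 11.6%, a difference of 5.35 points (4.21 to 6.49). Of 257 bp windows of the genome, 2.48% did.

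The centres of 538 KD-only peaks lay within 1 kb of the start site of a protein-coding gene, 3.52% (3.24% to 3.83%), beside 3.99% of all KD peaks. Shared peaks had 4.17%, CT-only peaks 1.58%, OE-only peaks 2.32% and genome windows 1.21%. Elsewhere, 37.0% of KD-only centres lay in introns of protein-coding genes, 12.4% in introns of other genes and 37.8% between genes, while 1.21% were in coding exons and 1.97% in untranslated exons. All KD peaks were near these values, with 34.5% and 10.9% in the introns, 40.6% between genes, 1.25% in coding and 2.21% in untranslated exons. Promoter peaks had 54.6% GC and 4.16% repeated bases, against 40.7% and 22.6% in the KD-only peaks farther away, and 321 of the 538 held a motif.

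The promoter-proximal KD-only peaks with the highest scores included, beside ACBD4 and RUFY4 above, the genes AP4E1 (a subunit of the AP-4 adaptor complex), SVIL (the actin-binding supervillin), NOG (the BMP antagonist noggin), GRN (progranulin), SNX18 (a sorting nexin), ADSS1 (an enzyme of AMP synthesis), ZNF341 (a zinc finger transcription factor), CLDN16 (a tight junction protein of the kidney), SPINT2 (a protease inhibitor) and NCL (nucleolin, a major nucleolar protein). All of these 12 promoter peaks overlapped H3K4me3 peaks of both CT and KD, as did 444 of the 538 promoter-proximal KD-only peaks (82.5%). This share was not computed for the other KD peaks near start sites, so it is a description only. The sites of 5 of the 12 peaks are shown, since they differ in how they depart from the most frequent letters, with the site in capitals on its own strand:

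AP4E1, chr15:50908598-50908611, minus strand: gcgagaggCCACCAGAGGGCGCaagagacc
NOG, chr17:56592656-56592669, plus strand: atagcgggCCAGCAGAGGGCGCgccgcccc
ADSS1, chr14:104723726-104723739, plus strand: cttcgcggCCGCCAGGGGGCGCgcccgcgc
CLDN16, chr3:190322510-190322523, minus strand: ccctgaaaCCGCCAGGGGGCGCtccccggc
NCL, chr2:231482905-231482918, plus strand: cgaggtggCCAGCAGGTGGCAGcgccgcgg

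The site at AP4E1 scored 22.99 bits, in a 243 bp peak whose centre stood 53 bp from the start site. This peak and that of RUFY4 were also called in the repeat-masked CT and OE lists, and those of GRN and ZNF341 in the OE one. The site at NOG scored 22 bits in a 343 bp peak with 72.01% GC, and its nearest CT and OE peaks were both 61.1 kb away. Sites at ADSS1, ZNF341 and CLDN16 each scored 21.10 bits and began alike, with a CpG in columns 2 and 3 as well as in columns 12 and 13. The CLDN16 peak was centred 33 bp from the start site and was 61.5 kb from the nearest CT peak. The site at NCL scored 20.83 bits, and the peak was called in the repeat-masked KD list and in neither of the other repeat-masked lists.

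H3K9me3, a mark of constitutive heterochromatin, and H3K27me3, a mark of Polycomb repression, overlapped few KD-only peaks, at shares below those of all KD peaks and above those of genome windows. The labels and the study's methods give the antibodies of these marks the other way round, so which list holds which mark is not certain. An H3K9me3 peak of CT overlapped 260 KD-only peaks (1.70%, beside 8.34% of all KD peaks) and one of KD 232 (1.52%, beside 8.39%). Shared peaks had 14.9% and 14.8%, more by 13.2 points (12.6 to 13.8) and 13.3 points (12.8 to 13.9). H3K27me3 overlapped 184 KD-only peaks in CT (1.21%, beside 7.63%) and 177 in KD (1.16%, beside 7.4%). Of 257 bp windows of the genome, 0.218% overlapped H3K9me3 of CT and 0.130% that of KD, and 0.0975% and 0.0769% overlapped H3K27me3. An input peak overlapped 56 KD-only peaks (0.367%), beside 4.48% of all KD peaks and 9.17% of shared peaks. KD-only peaks with a motif overlapped H3K9me3 of CT in 0.574% and motif-free ones in 2.49%. Among motif-free KD-only peaks repetitive over 50% or more, the share was 8.67%.

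In the 10 kb on either side of KD-only peaks, an H3K4me3 peak was present for 46.1% with CT as the source of the mark and 47.1% with KD, beside 58.6% and 59.4% of all KD peaks. For H3K9me3 the shares were 12.8% (12.3% to 13.3%) in CT and 8.74% (8.29% to 9.20%) in KD, beside 16.8% and 12.8%, and for H3K27me3 6.80% and 5.76%, beside 10.5% and 9.05%. The lower H3K9me3 in KD was not particular to KD-only peaks: shared peaks went from 19.99% to 15.7%, CT-only peaks from 13.2% to 8.11% and OE-only peaks from 17.3% to 12.6%. Among peaks with a motif the H3K9me3 shares were lower in both classes, with 9.04% in CT and 5.31% in KD around KD-only peaks and 8.94% and 4.84% around shared peaks. Each mark rests on 1 library per condition, and the same CTCF peaks enter both shares. For each of these marks the study reports fewer mapped reads in KD than in CT, and the part of depth was not tested.

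**Figure D5:**
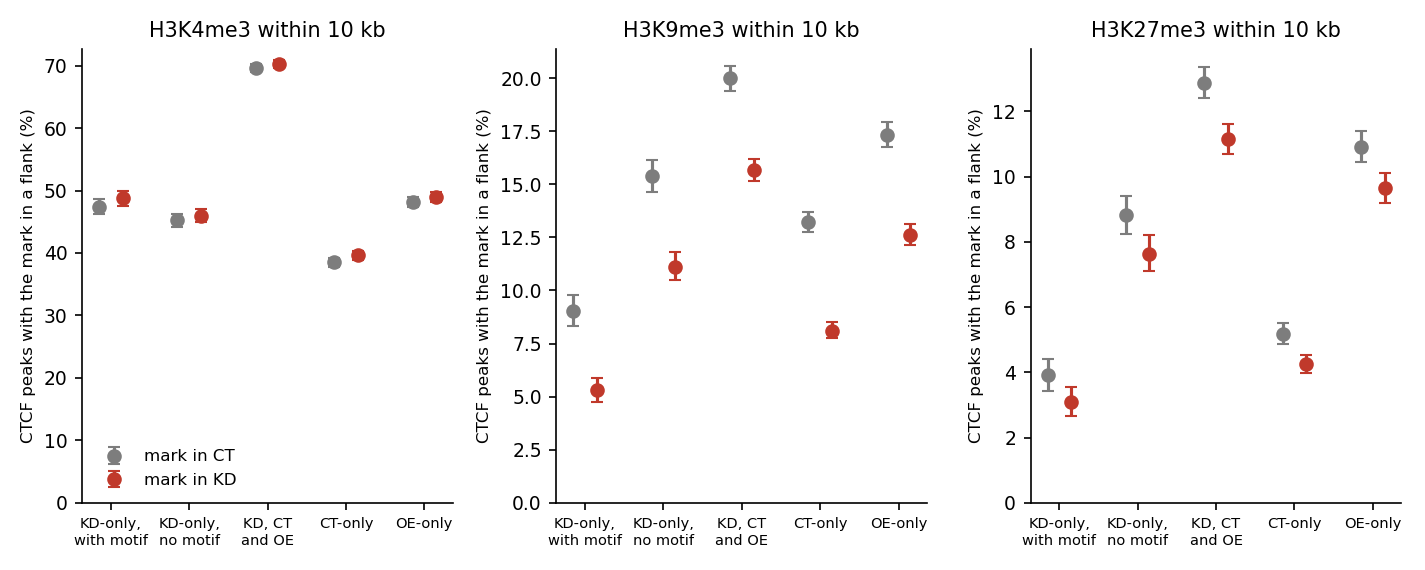
Points give the share of CTCF peaks (%, vertical axis, a separate scale per panel) with a peak of H3K4me3, H3K9me3 or H3K27me3 within 10 kb on either side, with the mark called in CT (grey) or KD (red) and exact 95% intervals over peaks. H3K9me3 and H3K27me3 are lower in KD than in CT for every class shown, and H3K4me3 is slightly higher.

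KD-only peaks were spread over all chromosomes. Their share of the KD peaks ran from 20.3% on Y (13 of 64) and 21.9% on chromosome 19 (354 of 1620) to 38.1% on chromosome 13 (490 of 1286). Motif shares differed too, from 30.6% of KD-only peaks on chromosome 9 to 56.8% on chromosome 19. Another KD-only peak within 10 kb was present for 12.4% of the 14742 KD-only peaks on chromosomes 1 to 22, X and Y. The reference used held 261 alternate loci, and 443 KD-only peaks lay on these, 149 of them on alternates of chromosome 6. A motif was present in 333 of the 443. For 417 of the 443, the central 100 bases occurred unchanged on the chromosome itself. That copy lay under a CT or OE peak in 99 cases, so the same sequence had a CT or OE call at a place that the rule did not compare. In a further 84 cases the KD-only peak lay on unplaced or unlocalized sequence.

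A KD-only peak was present within the gene or 10 kb around it for 6359 of 20033 protein-coding genes, 31.7%. The genes with most such peaks in their bodies were long ones: PTPRD, a receptor phosphatase gene of 2299 kb, held 19, AUTS2, a regulator of neuronal development, held 14 in 1195 kb, and TBC1D5, a regulator of endosomal traffic, held 14 in 1288 kb. Per 100 kb these were 0.827, 1.17 and 1.09 peaks. In gene lists chosen with earlier results known, the counts were 13 of 21 genes of the CTCF and cohesin machinery, 10 of 38 imprinted genes, 11 of 39 HOX genes, 36 of 53 clustered protocadherins, 2 of 5 genes of the beta-globin locus (through peaks nearest to the start sites of the olfactory receptor genes OR51M1 and OR51Q1), 9 of 24 transcription factors of kidney development, 7 of 15 repeat-expansion genes, 7 of 20 enzymes and readers of H3K9 and DNA methylation, and 55 of 249 zinc finger genes of chromosome 19. Genes of a cluster share their peaks: the 36 protocadherins shared 10 peaks.

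The clustered protocadherins encode cell surface proteins that neurons express in random combinations, and the alpha genes have a CTCF site at each promoter and another in the first exon. Of the KD-only peaks there, 4 fell at such places. Peak centres stood 43 bp from the start of PCDHA2, 10 bp from that of PCDHA7 and 29 bp from that of PCDHA10, and the fourth lay in the coding exon of PCDHA9. Their sites are given on the plus strand, which is also the strand of the genes, with the site in capitals:

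PCDHA2 promoter, chr5:140794786-140794799: ccttttagCCACATGATGTCGCtgtccacc
PCDHA7 promoter, chr5:140834177-140834190: catgatggCCACATGATGTCGCtctttacc
PCDHA10 promoter, chr5:140855846-140855859: acctaaagCCACCGGATGTCGCtgtcgtcc
PCDHA9 coding exon, chr5:140848952-140848965: ctcggtttCCACTAGAGGGCGCgtccgatg

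The promoter sites of PCDHA2 and PCDHA7 were identical over the 14 bases and scored 11.89 bits, that of PCDHA10 scored 14.65 bits and the exon site 22.39 bits. None of these peaks overlapped H3K4me3 in CT or KD, and the PCDHA7 peak was also called in the repeat-masked KD list.

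Among single genes of the other lists, YY1, a zinc finger protein of enhancer-promoter loops, had 3 KD-only peaks and no CT peak of the unmasked list within 10 kb. The best of these sites scored 20.76 bits, in a peak whose nearest start site was that of SLC25A29, 20685 bp away. That peak overlapped H3K4me3 of CT and KD and was called in the repeat-masked KD and CT lists. CTCF itself had 2 KD-only peaks, both without a motif, and 1 CT peak elsewhere in the gene or its flanks. EHMT1, an H3K9 methyltransferase, had 4, of which 3 held a motif, at up to 17.59 bits. GRB10, an imprinted gene of growth control, had 4, of which 2 held a motif, at up to 14.18 bits. Among the zinc finger genes of chromosome 19 with most KD-only peaks (2 each), ZNF587B had the site of highest score, 22.99 bits:

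ZNF587B intron, chr19:57830275-57830288, minus strand: aatggccgCCACCAGAGGGCGCcggaagtc

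At CGGBP1 itself, annotated over 97.9 kb, 3 KD-only peaks lay in the gene or within 10 kb of it. The best motif among them scored 8.41 bits. The start site nearest to these peaks was that of ZNF654, 16517 to 26528 bp from the peak centres. An H3K4me3 peak covered the start site of CGGBP1 in CT and in KD. The peak lists do not measure the level of CGGBP1, so the knockdown could not be checked in them. The study examined CGGBP1 by immunoblot and describes its knockdown as near-complete.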

How the data were processed

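CTCF and histone mark ChIP-seq of HEK293T was sequenced on an Ion Torrent S5, and the submitters' processing notes name Bowtie2, MACS2 and bedtools with the build hg38; versions are not given in the sources used here. The 19 files deposited by the authors are peak lists with chromosome, start and end. They hold no score, count or signal and do not give the depth. The study reports mapped reads per library, for CTCF with most in CT and fewest in OE, and these counts were not used here. Starts were read as 0-based and are printed 1-based. Per the labels unmasked CTCF peaks were called at p below 0.0025 (CT, KD) and 0.005 (OE), while the study's methods give 0.005 throughout.

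KD-only peaks were the intervals common to both KD-exclusive lists, and an overlap was 1 bp or more. Motif sites, repeated 24-mers (in place of a repeat annotation, which was not used here) and distances to start sites (GENCODE 44) were computed from hg38 with Python 3.11.15, numpy 2.4.6, pandas 2.3.3 and scipy 1.17.1, and the motif and repeat steps were tested on simulated data. The members, gene lists and comparisons were chosen with earlier results of these data known. Named peaks were those of the highest motif score (without repeats or input overlap, and near start sites), the widest without a motif, the genes of each list and of the whole genome with most members, and the members nearest to the edge of the rule. PCDHA2, PCDHA7, PCDHA9 and PCDHA10 were named as the places of those members, and the 5 promoter sites printed were picked after their letters were seen. Alternatives covered the overlap rule, input peaks, width, reference sequences, motif model, repeat minimum, windows and start sites. No sequence from chromosome 8 is shown.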

Additional observations from a re-analysis of the deposited data

How the results depend on the processing

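Of 55 alternative values for 8 results, 22 lay within the 95% interval of the reported value, 33 lay outside it and none of the differences that excluded 0 changed sign. The share of KD-only peaks with a motif was 42.7% when an overlap had to cover 50% of both peaks, 42.1% in the wider KD peaks (at or above the median width), 40.1% on chromosomes 1 to 22, X and Y, 25.8% at the stricter site threshold, 19.1% with the 12-letter consensus (at most 1 mismatch) and 37.2% in the central 200 bp. Its difference from shared peaks was -39.5 points with the 50% overlap, -47.2 without input peaks, -44.6 in the wider peaks, -41.8 on those chromosomes, -42.8 at the stricter threshold and -35.3 with the consensus. Repeated bases made up 23.6% with the 50% overlap, 21.2% without a CT or OE peak within 500 bp and 16.98% with 24-mers found at least 100 times. The difference in repeated bases from shared peaks depended on these choices: it was 2.89 points with the 50% overlap, -0.227 without a CT or OE peak within 500 bp, 9.02 without input peaks, 2.90 in the wider peaks, -0.391 with the minimum of 100 and 1.61 in the central 200 bp. H3K4me3 of KD overlapped 15.4% with the 50% overlap, 16.05% in the wider peaks and 20.05% with 1 kb added on each side, and the difference from shared peaks was -36.2 with the 50% overlap, -33.1 without input peaks and -34.1 with 1 kb added. A repeat-masked KD peak overlapped 20.3% with the 50% overlap, 20.7% in the wider peaks, 17.8% on those chromosomes and 17.6% when 50% of both peaks had to overlap. Start sites within 1 kb were 6.66% for all gene types, and 9.14% of peaks lay within 5 kb of a protein-coding one.

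No paired analysis was possible because each condition has 1 library, and for the same reason no leave-one-out was run. The lists hold no height or depth, so a KD-only peak just over the threshold cannot be told apart from a strong one, nor a gain of CTCF from a difference in depth or peak calling between libraries. Width was used as a stand-in for strictness. The KD-only share fell with width and with motif score, and the part of the threshold in this was not tested.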
